A study of Homo sapiens with 4 samples.

Results

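The 45 genes described here encode proteins that copy DNA or accompany S phase, and were chosen by symbol. Their probe sets were those whose single gene symbol in the platform's probe annotation is on the list. Each of the 45 genes had 1 probe set, out of 18417 genes and 33252 probe sets in all, and none shared a probe set with another gene. The intensities came from 4 arrays of human cell line RNA, 1 array in each of 4 groups. U266 is a multiple myeloma line, and its cells received DMSO vehicle or 15 µM atovaquone for 2 h. K562, from chronic myeloid leukaemia, carries the BCR-ABL1 fusion, and its cells received DMSO vehicle or 20 µM atovaquone for 5 h. The drug atovaquone treats malaria and inhibits electron transport in mitochondria at complex III. All 4 groups were grown in the same kind of medium with serum and had been resuspended in fresh medium the day before. Both dose and time differed between the lines, and the vehicle cultures too were harvested at 2 h and at 5 h.

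Since no group had a replicate, no tests or p-values are given, and every ratio compares single arrays. Array medians lay between 314 and 340. The vehicle arrays carried the markers of their lines. With bounds included, 8 of 8 plasma cell markers were at least 2-fold higher in U266. Of 7 erythroid markers with a probe set, 6 were at least 2-fold higher in K562. The remaining erythroid marker was also higher in K562, with a log2 difference (U266 minus K562) of −0.75. Of 10 markers of T cells, fibroblasts, endothelium and epithelium, 3 were above the floor for dim probe sets on both vehicle arrays, 3 on 1 of them and 4 on neither, with the endothelial PECAM1 at least 2.74-fold higher in U266 and the epithelial EPCAM at least 5.87-fold higher in K562. That floor is the 40th percentile of each array over the probe sets listed in the annotation. It lay close to the median of all probe sets, at 331 beside 339 on the U266 vehicle array. All 45 replication genes were above the floor on all 4 arrays.

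Replication starts with licensing, in which the origin recognition complex, CDC6 and CDT1 load the MCM helicase ring onto DNA. CDC45 and the GINS complex then join the ring, polymerase alpha and its primase start each strand, and polymerases delta and epsilon extend it on the PCNA clamp that the RFC complex loads. Many of these genes are transcribed at the border of G1 and S phase by E2F factors, which are released when cyclin-dependent kinases phosphorylate RB.

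The E2F element can be read in the promoters themselves. Of the 45 genes, 40 had an entry in RefSeq's promoter windows (GRCh38.p14), which run from 250 bases before to 50 bases after a start site. MCM4, MCM5, GINS4, POLD3 and CCNE2 had none. The letters TTTCGCGC, TTTGGCGC, TTTCCCGC and TTTGCCGC were searched on both strands. At least 1 of them was found for 20 of the 40 genes (50%), against 5.4% of 15843 protein-coding genes. By window the shares were 39.2% of 51 and 4.1% of 22199. Matches were found for 7 of 12 licensing genes, 3 of 5 helicase activation genes, 4 of 7 polymerase and primase genes and 1 of 4 nucleotide supply genes. The stretches below belong to genes whose values are described further on, with MCM6 shown for its repeated element. Letters run 5′ to 3′ on the gene's strand, and capitals mark the matched letters.
E2F1, chr20:33686386-33686485, minus strand, 100 bases up to the start site: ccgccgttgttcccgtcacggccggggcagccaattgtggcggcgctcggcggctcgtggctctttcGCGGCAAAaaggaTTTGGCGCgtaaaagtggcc
CDT1, chr16:88803689-88803788, plus strand, 100 bases up to the start site: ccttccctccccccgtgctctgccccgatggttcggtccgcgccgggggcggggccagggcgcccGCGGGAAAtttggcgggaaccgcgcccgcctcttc
POLA2, chr11:65261862-65261961, plus strand, 100 bases up to the start site: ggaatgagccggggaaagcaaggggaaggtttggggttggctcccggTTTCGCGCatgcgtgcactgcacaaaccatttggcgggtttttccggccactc
UNG, chr12:109098072-109098171, plus strand, 100 bases up to a start site: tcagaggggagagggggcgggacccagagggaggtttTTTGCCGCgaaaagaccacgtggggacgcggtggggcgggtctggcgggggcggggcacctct
MCM6, chr2:135876504-135876603, minus strand, beginning 160 bases before the start site: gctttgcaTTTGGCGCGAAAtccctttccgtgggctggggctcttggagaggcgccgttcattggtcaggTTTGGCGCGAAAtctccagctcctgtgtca
GINS1, chr20:25407667-25407696, plus strand, 30 bases across the start site: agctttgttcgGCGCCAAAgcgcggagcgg
MCM6 held the element at both places on both strands, in matches that overlap, so 4 matches fell in 2 runs of capitals. E2F1 held 2 matches within its last 33 bases before the start. UNG had 2 windows, and the match lay in 1 of them. A match describes the letters in a window and not a bound factor, and the absence of one says only that these letters are not in that window.

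The comparison of vehicle-treated U266 with vehicle-treated K562 asks how the replication machinery differs between the lines without atovaquone. Since U266 was harvested at 2 h and K562 at 5 h, line and time cannot be told apart in it. CDC45, the helicase cofactor, was 4.25-fold higher in K562, and CCNE2, one of the cyclins that drive entry into S phase, was 3.41-fold higher in U266. Of 14 licensing genes 10 had the higher value in K562, and of 4 nucleotide supply genes 3 had it in U266. Over all 9483 measured genes 4791 had it in K562 and 4691 in U266. A log2 difference below 0 means higher in K562 throughout. Of the 45 genes, 4 were at least 2-fold higher in K562 (8.89%), against a background of 6.97% of 9483 measured genes, and 1 was at least 2-fold higher in U266 (2.22%), against 7.97%. At 1.5-fold the counts were 11 higher in K562 (24.4%, background 16.2%) and 3 higher in U266 (6.67%, background 17.7%). The median log2 difference was −0.26, beside −0.0071 over all measured genes. For 2 probe sets of one gene the gap in this difference had an SD of 0.51 (356 genes), or 0.36 for a single probe set. The median absolute gap was smaller, at 0.12. Gaps of up to about 0.51 between genes with 1 probe set each cannot be told from differences between probe sets. In RNA from whole cultures, fewer cells in S phase and less RNA per cell cannot be told apart, and neither was measured here.

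CDC45 had an intensity of 1336 and 1378 on the U266 vehicle and atovaquone arrays and of 5777 and 5683 on the K562 arrays. Both K562 arrays were therefore far above both U266 arrays, with a log2 difference of −2.09 between the vehicle arrays and −2.01 between the atovaquone arrays. CCNE2 had 3549 and 3120 in U266 and 1060 and 942 in K562, the opposite order, with differences of 1.77 and 1.76. Its paralogue CCNE1, the other cyclin E gene, had 907 and 667 in U266 against 1108 and 984 in K562, a vehicle difference of −0.26.

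**Figure D1:**
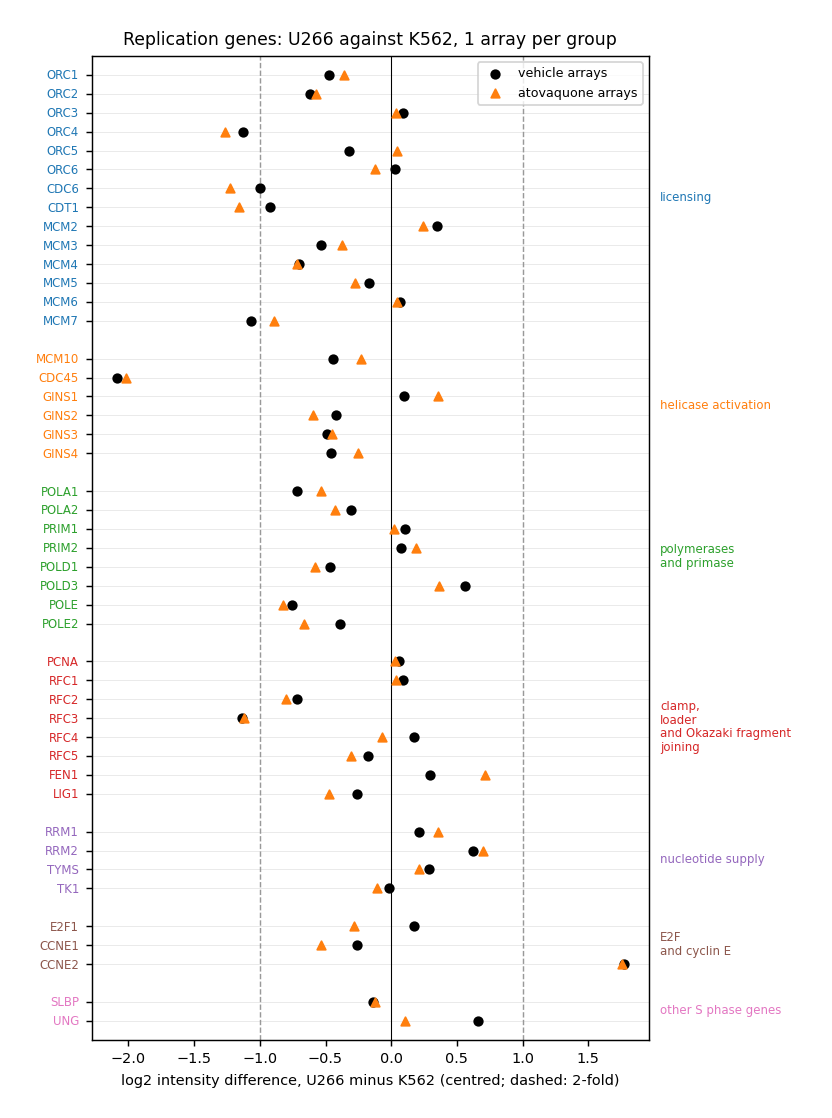
Log2 intensity difference, U266 minus K562, for each of the 45 genes, grouped by role; circles are the vehicle arrays and triangles the atovaquone arrays, with 1 array per group. CDC45 lies farthest to the left at −2.09 and CCNE2 farthest to the right at 1.77, and the symbols of a gene lie farthest apart for UNG (0.66 and 0.10).

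Among the 14 licensing genes the median difference was −0.50, 10 lay below 0 and 6 were at least 1.5-fold higher in K562 (42.9%). Over all 9483 measured genes 4791 lay below 0 and 16.2% were at least 1.5-fold higher in K562. ORC4, a subunit of the origin recognition complex, had 578 and 642 in U266 and 1288 and 1575 in K562, so that both K562 arrays exceeded both U266 arrays. MCM7, a subunit of the helicase ring, had 2722 and 2922 in U266 and 5800 and 5533 in K562. Both were past 2-fold between the vehicle arrays, at log2 differences of −1.13 and −1.07, and MCM7 stood at −0.89 between the atovaquone arrays. CDC6, the helicase loader, stood just under 2-fold at −0.997 and its partner CDT1 at −0.93. Within the ring the values, from 1 probe set each, were spread out. MCM4 stood at −0.71, MCM3 at −0.53, MCM5 at −0.17, MCM6 at 0.07 and MCM2 at 0.35. Within the origin recognition complex ORC2 stood at −0.62, ORC1 at −0.48, ORC5 at −0.32, ORC6 at 0.03 and ORC3 at 0.09.

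Helicase activation genes other than CDC45 lay closer together. GINS2, GINS3 and GINS4 stood at −0.42, −0.49 and −0.46, GINS1 at 0.10, and MCM10, which helps the helicase start, at −0.44. Of the 8 polymerase and primase genes, 5 were below 0. POLE and POLA1, the catalytic subunits of polymerases epsilon and alpha, stood at −0.76 and −0.72, POLD1, the catalytic subunit of polymerase delta, at −0.47, and the accessory subunits POLE2 and POLA2 at −0.39 and −0.30. The primase genes PRIM1 and PRIM2 lay near 0, at 0.10 and 0.07, and POLD3, an accessory subunit of polymerase delta, at 0.56.

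Among the clamp, loader and joining genes RFC3, a subunit of the clamp loader, was the member past 2-fold. Its intensity was 1475 and 1370 in U266 and 3292 and 3046 in K562, a log2 difference of −1.13. RFC2 followed at −0.72, while RFC1, RFC4 and RFC5 stood at 0.09, 0.17 and −0.17, again from 1 probe set each. PCNA, the clamp, stood at 0.06, the flap nuclease FEN1 at 0.29 and the ligase LIG1 at −0.26.

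The 4 nucleotide supply genes had a median of 0.25. RRM2, the small subunit of ribonucleotide reductase, had 5854 and 5686 in U266 and 3870 and 3580 in K562, both U266 arrays being the higher, and a log2 difference of 0.62. Its partner RRM1 stood at 0.21, thymidylate synthase TYMS at 0.29 and thymidine kinase TK1 at −0.02. E2F1, the transcription factor of G1 and S phase, stood at 0.18, SLBP, which binds histone mRNA, at −0.14, and UNG, the uracil-DNA glycosylase that removes uracil from DNA, at 0.66.

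The atovaquone arrays offer a second reading of the line difference, at other doses and times. The sign was the same for 41 of 45 genes, and the median absolute gap between both readings was 0.12. The exceptions in sign were ORC5, ORC6, RFC4 and E2F1. In this reading 5 genes were at least 2-fold higher in K562 (11.1%, background 7% of 9489 genes) and 1 in U266 (2.22%, background 8.39%). At 1.5-fold there were 11 (24.4%, background 16.4%) and 3 (6.67%, background 18%). Of the 11 genes at least 1.5-fold higher in K562 on the vehicle arrays, 9 were past that size in both readings, and of the 3 higher in U266, 2 were. The shares of all genes that recur in sign or size were not computed. Both arrays of a line were close over all 33252 probe sets, with Spearman's rho of 0.989 in U266 and 0.990 in K562. Recurrence among these genes was not compared with that among all genes, and is not read as a trait of theirs. UNG had the largest gap, at 0.66 between vehicle arrays and 0.10 between atovaquone arrays, and FEN1 stood at 0.29 and 0.71.

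Atovaquone against vehicle asks whether S phase genes differ after a short exposure. In U266 at 2 h, 0 of 45 genes were at least 1.5-fold higher (background 0.857% of 10731 measured genes) and 0 were at least 1.5-fold lower (background 0.0932%). In K562 at 5 h, again 0 were at least 1.5-fold higher (background 1.42% of 10756) and 0 lower (background 0.697%). The median log2 ratio of atovaquone over vehicle was −0.0053 in U266 and 0.0064 in K562, beside −0.00012 and −0.0057 over all measured genes. Ratios ran from −0.43 to 0.20 in U266 and from −0.53 to 0.43 in K562. For 2 probe sets of one gene the gap in the ratio had an SD of 0.15 in U266 (399 genes) and 0.16 in K562 (417 genes). For a single probe set these are 0.10 and 0.12. Such SDs compare probe sets on the same arrays, so they leave out errors shared across an array and the spread between cultures.

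At the smaller size of 1.2-fold, 3 genes were lower with atovaquone in U266 (6.67%, background 3.08%) and 0 were higher (background 4.06%). CCNE1, which encodes cyclin E1, was the lowest, with an intensity of 907 on the vehicle array and 667 on the atovaquone array, a log2 ratio of −0.43. Of all measured genes in U266, 0.38% had a lower ratio. POLA2, the accessory subunit of polymerase alpha, had 1468 and 1196, a ratio of −0.29. GINS1, a GINS subunit, had 2368 and 1953, a ratio of −0.27. GINS1 lay at the limit of the smaller size, and its ratio ranged from −0.31 to −0.26 over the processing alternatives, falling short of 1.2-fold when the floor was set at the 20th percentile or left out, or an offset of 50 added.

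In K562, 4 genes were at least 1.2-fold higher with atovaquone (8.89%, background 9.61%) and 3 were lower (6.67%, background 9.04%), shares near or under the background. UNG was the highest, with 1517 on the vehicle array and 2035 on the atovaquone array, a log2 ratio of 0.43. CDT1, the licensing factor, had 1476 and 1886, a ratio of 0.36. E2F1 had 1341 and 1649 and ORC4 had 1288 and 1575, both at a ratio of 0.30. On the low side GINS1 had 2254 and 1560, a ratio of −0.53, and 1.07% of measured genes were lower still. FEN1 had 1673 and 1235, a ratio of −0.43, and ORC5, another subunit of the origin recognition complex, had 2527 and 2019, a ratio of −0.32. These 7 genes come from several roles, and higher and lower members stood within the same complex, as ORC4 and ORC5 did.

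**Figure D2:**
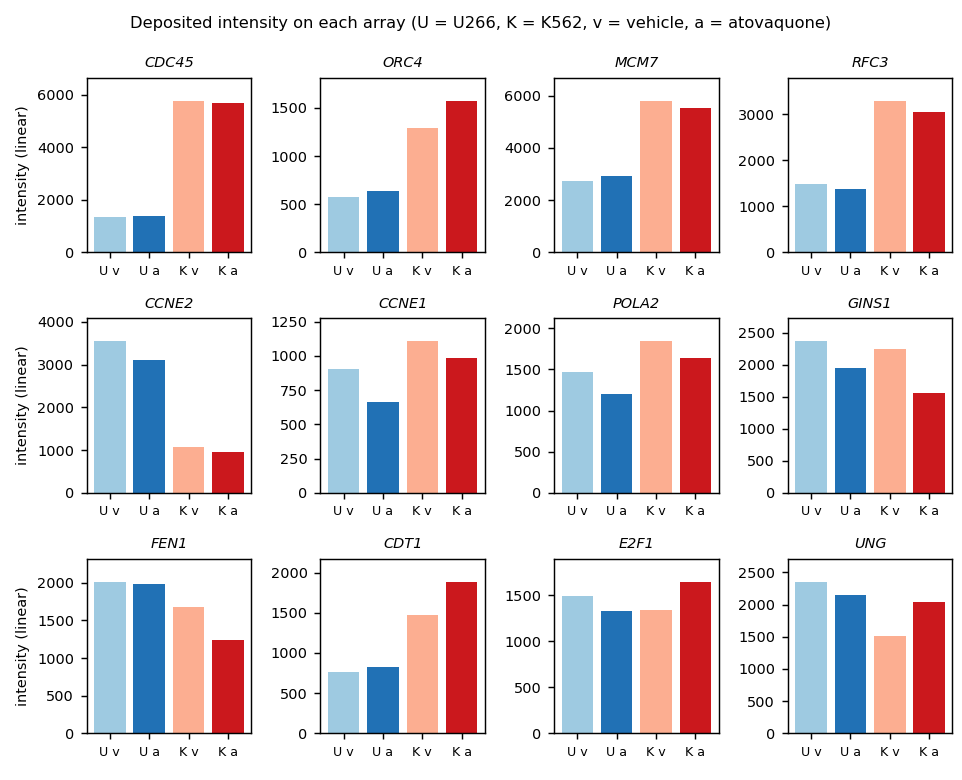
Deposited linear intensity on each of the 4 arrays for 12 of the genes, with vehicle in the pale and atovaquone in the dark bar, U266 in blue and K562 in red, and 1 array per bar. CDC45, ORC4, MCM7, RFC3 and CCNE2 separate by line, while GINS1 is lower on the atovaquone array of each line (2368 to 1953 and 2254 to 1560).

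By role, the median log2 ratio of the licensing genes was 0.06 (U266) and 0.04 (K562), with 10 and 9 of 14 above 0. Over all measured genes 5361 of 10731 lay above 0 in U266. In K562 5254 of 10756 lay above 0 and 5501 below. The MCM2 to MCM7 genes stayed within a narrow range, from −0.0017 (MCM4) to 0.11 (MCM7) in U266 and from −0.11 (MCM3) to 0.17 (MCM5) in K562. MCM2 and MCM6 lay between these, at 0.14 and 0.10 in K562. The origin recognition genes other than ORC4 and ORC5 ran from −0.19 (ORC6) to 0.10 (ORC3) in U266 and from −0.12 (ORC1) to 0.15 (ORC3) in K562, with ORC2 at 0.04 there. CDC6 stood at −0.18 in U266 and 0.05 in K562. Helicase activation genes had medians of −0.04 and −0.16, and 5 of 6 lay below 0 in K562: GINS1, MCM10 at −0.21, GINS3 at −0.17, GINS4 at −0.15 and CDC45 at −0.02. GINS2 stood at 0.08.

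Polymerase and primase genes had medians of −0.0093 in U266 and 0.10 in K562. Beside POLA2, which stood at −0.16 in K562, their U266 ratios ran from −0.11 (POLE) to 0.20 (PRIM2). In K562 POLE2 stood at 0.20, POLD3 at 0.18, PRIM1 at 0.15, POLD1 at 0.12, PRIM2 at 0.08, POLE at −0.05 and POLA1 at −0.10. Clamp, loader and joining genes ran from −0.11 (RFC5) to 0.10 (RFC1) in U266. In K562 the ligase LIG1 stood at 0.24, RFC4 at 0.16, RFC1 at 0.15, RFC2 at 0.08, RFC5 at 0.02, PCNA at −0.03 and RFC3 at −0.11.

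Nucleotide supply genes had the smallest range in K562, from −0.11 (RRM2) to 0.0064 (TK1), and ran from −0.08 (TK1) to 0.13 (RRM1) in U266. E2F1, CCNE1 and CCNE2 were all below 0 in U266, with E2F1 at −0.16 and CCNE2 at −0.18. So were 5369 of 10731 measured genes there. In K562 the cyclin E genes CCNE1 and CCNE2 were at −0.17 and −0.16, while E2F1 was above 0. SLBP stood at 0.01 in U266 and −0.0048 in K562, and UNG at −0.13 in U266. For the 20 genes with an E2F match the median ratio was −0.08 (U266) and 0.02 (K562), and for the 20 with a window but no match it was 0.0047 and 0.0008.

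**Figure D3:**
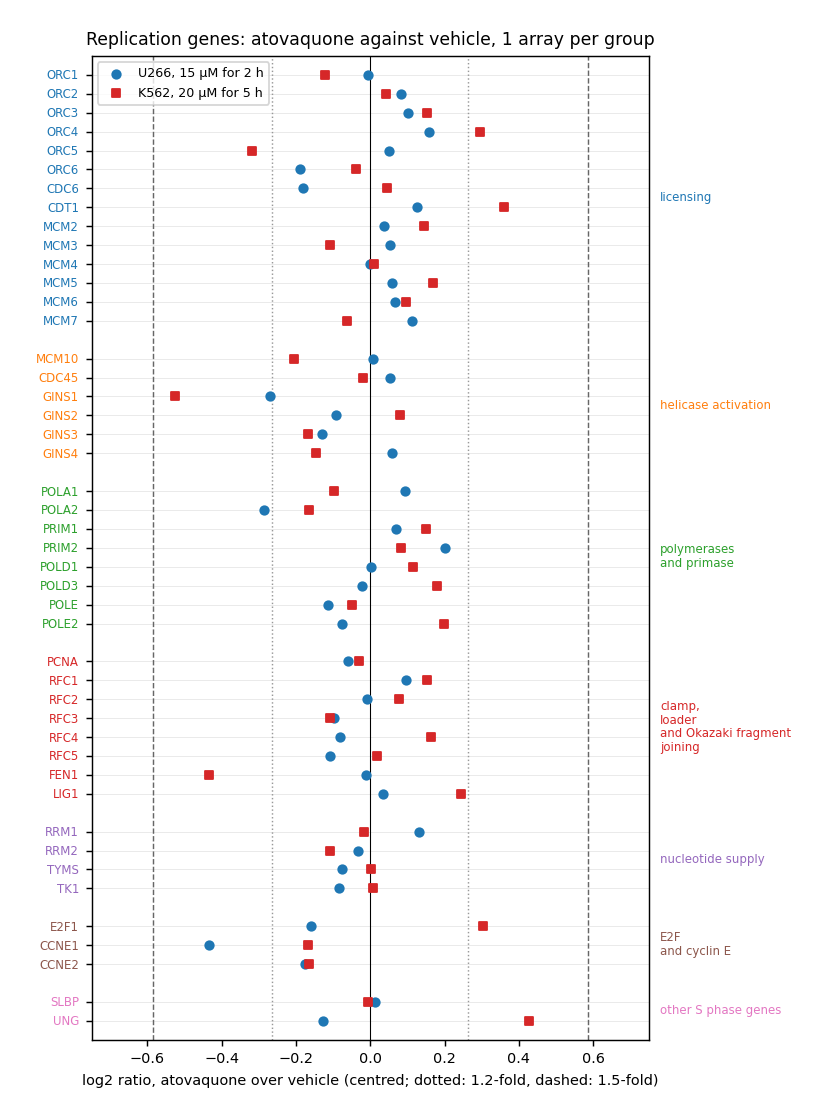
Log2 ratio of atovaquone over vehicle for each of the 45 genes by role, with U266 as circles and K562 as squares, 1 array per group; dotted lines mark 1.2-fold and dashed lines 1.5-fold. No symbol reaches a dashed line, and GINS1 (−0.53) and UNG (0.43) in K562 and CCNE1 (−0.43) in U266 lie farthest out.

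Further replication and G1/S genes off the list, 58 of them with a probe set, give the surroundings. In U266, 1 of 58 was at least 1.5-fold lower with atovaquone (1.72%, background 0.0932%) and 0 higher (background 0.857%). In K562, 0 of 57 measured were at least 1.5-fold higher (background 1.42%) and 0 lower (background 0.697%). At the smaller size of 1.2-fold U266 had 1 gene higher (1.72%, background 4.06%) and 3 lower (5.17%, background 3.08%). K562 had 7 higher (12.3%, background 9.61%) and 3 lower (5.26%, background 9.04%). SKP2, the ubiquitin ligase subunit that targets the kinase inhibitor p27, had 2530 and 1637 in U266, a ratio of −0.62, and 5111 and 4476 in K562, a ratio of −0.19. CDC25A, the phosphatase that activates CDK2 at the start of S phase, stood at −0.35 in U266 and −0.54 in K562. It was at 954 and 745 in U266 and at 1407 and 967 in K562, lower on the atovaquone array of each line. E2F8 and UHRF1 stood at −0.31 and −0.24 in U266, and E2F5, E2F7 and RPA2 at −0.49, −0.41 and −0.26 in K562. With the mean of its probe sets UHRF1 stood at −0.13 in U266. On the high side were POLD4 at 0.26, MTBP at 0.15, RB1 at 0.14 and CHAF1A at 0.12 in U266, and RNASEH2B at 0.43, POLE4 at 0.41, TIMELESS at 0.39 and MTBP at 0.38 in K562.

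Between the vehicle arrays, 5 of 57 of these genes were at least 2-fold higher in K562 (8.77%, background 6.97%) and 1 was at least 2-fold higher in U266 (1.75%, background 7.97%). RB1, the repressor of E2F, had 436 and 478 in U266 and 2046 and 2132 in K562, a log2 difference of −2.20. TFDP2, a dimer partner of E2F, stood at −1.74, POLE4 at −1.53 and E2F3 at −1.12. In U266 POLE4 had 364 and 324 and E2F3 had 440 and 374, close to the floors of 331 and 324. RB1, at 436 and 478, was about as dim as E2F3 on the vehicle array. The vehicle differences of RB1, POLE4 and E2F3 had a value at 8 of 9 processing settings, and that of TFDP2 at all 9. In the other direction E2F2 stood at 1.31, with 1380 and 1218 in U266 and 567 and 547 in K562, and DSCC1, ASF1B and SUPT16H at 0.92, 0.71 and 0.61. DBF4, the activator of the kinase CDC7, was below the floor on both K562 arrays and at least 3.37-fold higher in U266. E2F1, E2F2 and E2F3 thus differed in place, the first lying near 0, the second higher in U266 and the last higher in K562.

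Mitosis genes were set beside the replication genes because both groups follow the cell cycle. Like the other lists, the mitosis list was chosen with earlier results of these data known. In K562 the mitosis genes had a median log2 ratio of −0.18 over 35 genes. At least 1.2-fold lower were 12 (34.3%, background 9.04%), and 1 was higher (2.86%, background 9.61%). The replication genes had 3 of 45 lower at that size. KIF23 and KIF11, kinesins of cell division, stood at −0.49 and −0.42, CCNB1, the mitotic cyclin B, at −0.42 and CDCA8, a subunit of the chromosomal passenger complex, at −0.39. CDC25C was at 0.43, NUF2 at 0.16, TTK at 0.15 and CCNB2 at 0.11. In U266 the mitosis median was 0.03 over 34 genes, with ratios from −0.20 (AURKB) to 0.14 (CCNB2). There 0 were at least 1.2-fold higher (background 4.06%) and 0 lower (background 3.08%). KIF23 and CCNB1 stood there at 0.12 and −0.13. Between the vehicle arrays the mitosis median was −0.02. At least 2-fold higher in U266 was 1 gene, CDC25B at 1.07 (2.86%, background 7.97%), and in K562 0 (background 6.97%). These lists were not tested against each other, since genes are not replicates, and the difference was not tested between the lines.

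The mitosis list also differed in its promoter letters. The cell cycle homology region, searched as TTTGAA or TTCGAA on both strands (the latter reads the same on each), was found for 22 of 30 mitosis genes (73.3%) and for 3 of 40 replication genes (7.5%), against 17.5% of protein-coding genes. The E2F letters were found for 2 of the 30 mitosis genes. KIF23 is shown as the mitosis gene with the lowest K562 ratio, with the match in capitals.
KIF23, chr15:69414264-69414323, plus strand, beginning 85 bases before the start site: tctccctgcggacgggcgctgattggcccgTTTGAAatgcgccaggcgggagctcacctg
The 21 mitosis genes with such a match and a ratio had a K562 median of −0.21, and the 8 with a window and no match had −0.12. In these sets 3 of 21 and 1 of 8 lay above 0, beside 5254 of 10756 measured genes. Those 3 were CDC25C, the highest at 0.43, NUF2 and CCNB2, so genes at both ends of the K562 ratios had a match. The difference between the sets was not tested.

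**Figure D4:**
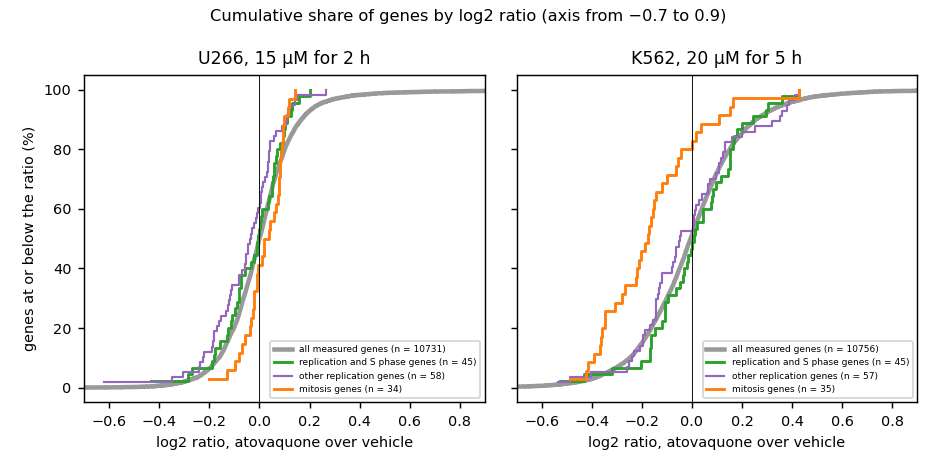
Cumulative share of genes (in percent) by log2 ratio of atovaquone over vehicle in U266 (left) and K562 (right), for all measured genes, the 45 replication and S phase genes, other replication genes and mitosis genes, with 1 array per group. The replication curve runs beside that of all genes in both panels (medians −0.0053 and 0.0064), while the mitosis curve in K562 lies to the left (median −0.18).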

How the data were processed

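The values, 1 column per array, are the linear intensity of every probe set as deposited by the authors. Total RNA was labelled as biotinylated cRNA, per the labels' protocols. As to software, background correction and normalisation, these are not given in the sources read here. Of 33252 probe sets, 19460 had 1 gene symbol, 1754 several and 12038 were not listed, and the values of genes use the first kind. Where a gene had more probe sets than 1, the brightest by mean log2 intensity was used. Intensities were put on the log2 scale, values below each array's 40th percentile over listed probe sets were raised to it, and each comparison's ratios were shifted so that measured probe sets had a median of 0. The shift removed −0.0096 in U266, −0.0048 in K562 and −0.02 between the vehicle arrays, and any change shared by most genes with it. Genes that reach the floor on both arrays count as measured, and others have a bound or no value. Whether the cultures differ beyond chance cannot be assessed with 1 array per group, and the number of arrays limits the precision. The members and gene lists were chosen with earlier results of these data known. All 45 members were named, and of other lists up to 4 genes per direction, with bounds of at least 2-fold and the other line's values of some of them. The calculation was checked on simulated data. Alternatives were other floors, scalings, offsets and probe set rules. Promoter sequences are RefSeq's. Python 3.11.15 with pandas 2.3.3 was used.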

Additional observations from a re-analysis of the deposited data

How the results depend on the processing

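Under 8 other settings (floor at the 20th or 60th percentile or none, no centring, scaling to the 75th percentile, quantile normalisation, mean of probe sets, and an offset of 50), the counts of replication genes past 1.5-fold with atovaquone were 0 in each line and direction. The U266 median ranged from −0.04 to 0.0041, the K562 median from −0.02 to 0.01, and the vehicle line difference from −0.32 to −0.16, the last range including the atovaquone arrays, an alternative chosen after seeing the data. At 1.2-fold the count lower was 2 to 3 in U266, and K562 had 4 higher and 3 lower throughout. Between the lines 3 to 5 genes were at least 2-fold higher in K562 and 1 in U266, and at 1.5-fold 10 to 12 and 2 to 3. At the 60th percentile ORC4, GINS4 and CCNE1 were no longer measured in U266. No value past its size changed sign. No paired analysis was possible because each group held 1 array, and no array could be left out for the same reason. How far the intensities stand above background is unknown, since control probes are not marked in the tables used here.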

Other observations

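The atovaquone ratios of both lines come from separate arrays and can be set side by side. Over the 45 replication genes Pearson's r was 0.31 and Spearman's rho 0.29, and 24 of 45 had the same sign in both lines (53.3%, beside 53.5% of 9222 genes measured on all arrays). Over those 9222 genes r was 0.09. These are descriptions across genes that share arrays, with no test. GINS1 was the single replication gene at least 1.2-fold lower in both lines, 0 were higher in both and 0 were opposite, and 36 of 45 stayed within 1.2-fold in both. Of the 9222 genes 55 were lower in both, 70 higher in both, 82 opposite and 7115 within 1.2-fold in both.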
